A study of Homo sapiens with 8 samples.

Results

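The enzymes that write and erase DNA methylation were examined in a breast cancer progression series of human mammary epithelial cells. The set holds 6 listed genes, each found as a row of the 56632-gene count table by its Ensembl identifier. They are the 3 catalytically active DNA methyltransferases DNMT1, DNMT3A and DNMT3B, and the 3 ten-eleven translocation dioxygenases TET1, TET2 and TET3. The genes were listed by name, not by a threshold on measured values. RNA-seq of poly A+ RNA was available for 4 isogenic lines with 2 libraries each, 8 in all. M1 is MCF10A, an immortalized, non-tumorigenic basal mammary epithelial line. M2 (MCF10AT1k.cl2) is MCF10A that received the activated T24-HRAS oncogene and was selected through a xenograft. The tumorigenic lines were each made from M2 after it had formed xenograft tumours: M3 is MCF10Ca1h, and M4, which was not made from M3, is MCF10CA1a.cl1. Both thus descend from cells given the HRAS transgene, which the counts do not measure apart from the cell's own HRAS. Each line was grown as 3D acini in Matrigel for 8 days in medium with 2% horse serum, hydrocortisone, cholera toxin and insulin. The M1 and M2 medium held 10 ng/ml EGF and that of M3 and M4 none, so the line and the medium cannot be told apart in any comparison of M1 or M2 with M3 or M4. Each line is 1 cell line. The p-values given here measure only the spread between replicate libraries, which the main test estimated over all 4 lines together.

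DNA methylation in mammals sits mostly on the cytosine of CpG dinucleotides. DNMT1, brought to freshly replicated DNA by UHRF1 and PCNA, copies the existing pattern onto the new strand, and its transcript is abundant in dividing cells. DNMT3A and DNMT3B place methyl groups on unmethylated CpGs. The TET enzymes need iron and 2-oxoglutarate to oxidise methylated cytosine to hydroxymethylcytosine and further products, which are removed by the glycosylase TDG or lost as DNA replicates. These are transcript measurements only: enzyme activity and DNA methylation were not measured in these libraries.

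The 250 bases before the start of the annotated canonical transcript are shown for DNMT1 and TET1, whose levels differed among the lines by the test over all lines, with each CG dinucleotide, the substrate of these enzymes, in capitals. Sequences are from GRCh37, the build of the counts, with starts from GENCODE, and read 5′ to 3′ on the gene's strand.
DNMT1 promoter, chr19:10305630-10305879, minus strand: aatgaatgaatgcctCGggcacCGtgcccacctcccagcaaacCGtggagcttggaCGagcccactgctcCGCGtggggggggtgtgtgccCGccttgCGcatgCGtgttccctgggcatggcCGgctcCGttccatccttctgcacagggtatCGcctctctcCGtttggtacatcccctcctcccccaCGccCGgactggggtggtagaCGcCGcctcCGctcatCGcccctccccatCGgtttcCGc
TET1 promoter, chr10:70319844-70320093, plus strand: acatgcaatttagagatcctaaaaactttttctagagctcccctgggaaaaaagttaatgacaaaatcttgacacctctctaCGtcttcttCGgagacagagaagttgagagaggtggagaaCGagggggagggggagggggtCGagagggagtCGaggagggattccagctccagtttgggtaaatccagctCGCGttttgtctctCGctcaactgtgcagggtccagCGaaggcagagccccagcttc
The DNMT1 window holds 21 CpGs, while the TET1 window holds 9. Across 19874 protein-coding genes the median for such a window was 18 CpGs, with quartiles of 7 and 27. At least as many CpGs as in the TET1 window were found in 72.2% of them, against 42.8% for DNMT1. Denser windows were found for DNMT3A with 33 CpGs, TET2 with 34 and TET3 with 37. TET1 therefore had the fewest CpGs of these 5 members in this window, which is a description of the sequence and not of its methylation.

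The library totals ran from 69669970 to 107350344 counts, with a median of 84947231. Basal epithelial markers were present in every library (KRT5 at 2837 to 9190 CPM, counts scaled to library size with TMM factors), as in a basal mammary line, although KRT14 stood at only 2.30 to 99.7 CPM. HRAS stood at 154.1 and 138.7 CPM for M1 and 159.8 and 153.5 CPM for M2, so its total transcript did not separate the line with the transgene from its parent. In M3 and M4 it was 269.3 to 352.4 CPM. The M2 libraries were much closer to each other than other replicates were, with a median absolute log2 difference of 0.050 across 10773 genes against 0.183 to 0.276 within the other lines. Their chi-square per degree of freedom was 6.69, above the value of about 1 that repeated sampling of one library would give. In the other lines it was 127.9 to 331.2. The value cannot tell separate cultures from 2 libraries of 1 culture. The paper describes biological replicates, and the 2 libraries were kept as separate replicates. As the main test estimated the spread over all 4 lines, this close pair also enters the p-values of comparisons without M2. A supplementary table of the study places the library labelled M1 replicate 2 under M2 and the library labelled M2 replicate 1 under M1. The labels were followed here. By the same measure the libraries labelled M1 differed from each other by 0.225 and from the M2 libraries by 0.293 to 0.295. Each M1 or M2 library was thus closer to the one sharing its label than to those of the other line. Each call of a member or count of a list against M1 is also given with these 2 doubtful libraries exchanged. The exchange also alters the spread that the test estimates over all 4 lines. In M4 against M3, which holds neither library, TET2 kept a log2 fold change of 0.69. Its edgeR adjusted p there went from 0.0477 to 0.120. A call lost under the exchange can thus reflect that spread as well as the difference itself. How many of all genes were called under the exchange is not given here.

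DNMT1, the maintenance methyltransferase (19:10244018-10341962, minus strand), was the most abundant member. It was measured at 88.8 and 78.5 CPM in the M1 pair, 139.0 and 130.2 CPM in the M2 pair, 122.2 and 157.1 CPM in the M3 pair, and 148.4 and 148.6 CPM in the M4 pair. All 6 libraries of M2, M3 and M4 lay above both M1 libraries, and the ranges of M2 and M3 overlapped. The mean was 83.7 ± 7.31 CPM for M1, 134.6 ± 6.26 for M2, 139.7 ± 24.7 for M3 and 148.5 ± 0.177 for M4 (SD, n = 2 for each). DNMT1 rose 1.67-fold in M3 over M1 (log2 fold change 0.74, SE 0.157, adjusted p = 0.0155) and 1.77-fold in M4 over M1 (0.83, SE 0.157, adjusted p = 0.00695), by edgeR's quasi-likelihood test with Benjamini-Hochberg adjustment over 18431 genes. In M2 it was 1.61-fold of M1 (log2 fold change 0.69, SE 0.157), just outside the threshold at an edgeR adjusted p of 0.0506. M2, M3 and M4 were not separated from each other, with log2 fold changes of 0.05 to 0.14 and edgeR adjusted p-values of 0.544 to 0.880.

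These DNMT1 results rested on the assignment of the M1 and M2 libraries. With the library labelled M1 replicate 2 and that labelled M2 replicate 1 exchanged, the log2 fold change became -0.13 for M2 against M1 (edgeR adjusted p = 1), 0.29 for M3 against M1 (adjusted p = 0.661) and 0.38 for M4 against M1 (adjusted p = 0.466). Without both libraries the values were 0.55, 0.66 and 0.74, with edgeR adjusted p-values of 0.483, 0.155 and 0.0987. Leaving out M1 replicate 2 alone also ended the M3 against M1 call (adjusted p = 0.0629, edgeR), as did fitting only M1 and M3 (adjusted p = 0.0853).

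The proliferation genes moved with DNMT1. The list of 16 S phase and mitotic genes, among them the MCM helicase subunits, CCNB1 and TOP2A, summed to 1185 and 1076 CPM in the M1 libraries. It summed to 2696 and 2665 CPM for M2, 2593 and 2492 for M3, and 2117 and 2725 for M4. By edgeR, 12 of the 16 rose in M2 against M1, 12 in M3 and 13 in M4, with none lower and medians of 1.21, 1.31 and 1.13 on the log2 scale. Of all tested genes 3.37%, 12.9% and 15.6% were higher there. The medians of all tested genes in these 3 comparisons were -0.035, -0.016 and -0.017. BUB1, a mitotic checkpoint kinase, rose by 1.57 in M2, 1.92 in M3 and 1.50 in M4 (log2, edgeR adjusted p = 0.00746, 0.00111 and 0.00145). CCNB1, the mitotic cyclin, rose by 1.74, 1.52 and 1.17 (edgeR adjusted p = 0.00609, 0.00227 and 0.00362), and MCM5 by 1.17, 0.71 and 1.09 (adjusted p = 0.00633, 0.00932 and 0.00121). TOP2A rose by 1.40 in M2 and 1.29 in M3, and fell by 0.84 from M2 to M4 and by 0.74 from M3 to M4 (edgeR adjusted p = 0.0113, 0.00470, 0.0211 and 0.0405). DNMT1 as a share of the summed list was 7.50% and 7.30% for M1, 5.16% and 4.89% for M2, 4.71% and 6.30% for M3, and 7.01% and 5.45% for M4. The part of proliferation in the DNMT1 level was not tested. With the 2 libraries exchanged none of the 16 genes passed the edgeR test in any comparison, and the medians against M1 became -0.050, 0.396 and 0.378.

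**Figure D1:**
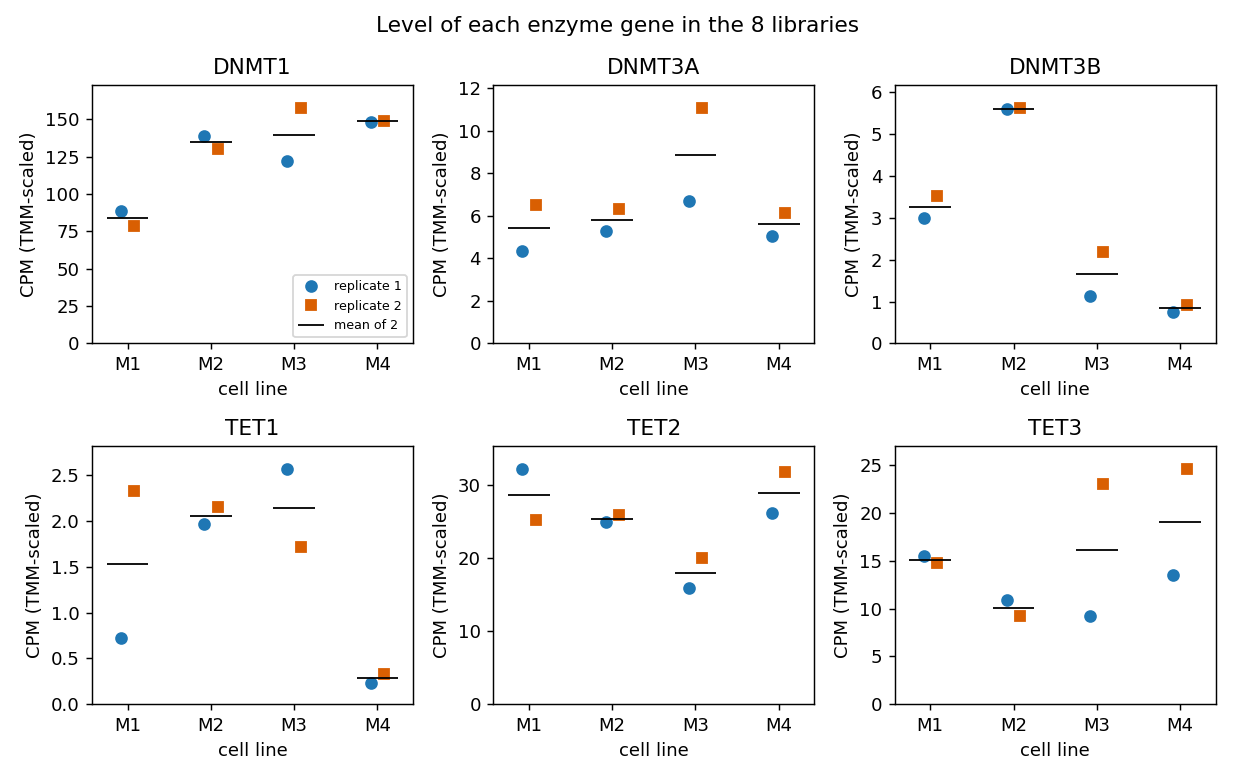
CPM of each of the 6 genes (vertical axis, from 0, its own scale per gene) in M1 to M4; circles are replicate 1, squares replicate 2 and lines the mean of 2. DNMT1 lies above both M1 libraries in all 6 others, DNMT3B is highest in M2 and lowest in M4, and TET1 stands at 0.229 and 0.333 CPM in M4.

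The 2 de novo methyltransferases did not move alike. DNMT3B (20:31350191-31397165, plus strand) was measured at 3.00 and 3.53 CPM in the M1 pair, 5.58 and 5.60 CPM in the M2 pair, 1.14 and 2.17 CPM in the M3 pair, and 0.758 and 0.922 CPM in the M4 pair. These values came from 248 and 289 counts for M1, 568 and 394 for M2, 90 and 189 for M3, and 86 and 72 for M4. No line's libraries overlapped those of another line, in the order M2, M1, M3, M4. The line means were 5.59 ± 0.0160 CPM for M2, 3.26 ± 0.373 for M1, 1.65 ± 0.731 for M3 and 0.840 ± 0.116 for M4 (SD, n = 2). DNMT3B thus spanned 6.65-fold between lines, against 1.63-fold for DNMT3A and 1.77-fold for DNMT1. It fell 6.65-fold from M2 to M4 (log2 fold change -2.73, SE 0.389, edgeR adjusted p = 0.00350), 3.38-fold from M2 to M3 (-1.76, SE 0.374, adjusted p = 0.0383) and was 3.88-fold lower in M4 than in M1 (-1.96, SE 0.380, adjusted p = 0.00748). The neighbouring steps in the order of the levels did not pass the edgeR test: M2 against M1 (log2 fold change 0.78, adjusted p = 0.246), M3 against M1 (-0.98, adjusted p = 0.0960) and M4 against M3 (-0.98, adjusted p = 0.111).

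The fall of DNMT3B in M4 did not rest on the doubtful libraries alone. With them exchanged the log2 fold change was -2.35 for M4 against M1 (edgeR adjusted p = 0.0327) and -2.44 for M4 against M2 (adjusted p = 0.0270). M4 against M2 passed under each of the 17 alternatives run, with edgeR or DESeq2 adjusted p-values up to 0.0330. M4 against M1 passed under 15 of 17 and missed without M4 replicate 1 (edgeR adjusted p = 0.0513) and without both doubtful libraries (0.0648). M3 against M2 was less firm: it passed under 9 of 17, and with the libraries exchanged it was -1.46 (edgeR adjusted p = 0.205). It also missed without either M2 replicate (edgeR adjusted p = 0.244 and 0.241) without M3 replicate 1 (0.0911) and without either M4 replicate (0.0606 and 0.0641).

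DNMT3A (2:25450724-25565459, minus strand) was measured at 4.36 and 6.53 CPM in the M1 pair, 5.30 and 6.33 CPM in the M2 pair, 6.70 and 11.0 CPM in the M3 pair, and 5.07 and 6.14 CPM in the M4 pair. Both M3 libraries were above the other 6, and the ranges of M1, M2 and M4 overlapped. It passed in none of the 6 comparisons. M3 differed from M1 by 0.70 (SE 0.327), M2 from M1 by 0.09 (SE 0.326) and M4 from M1 by 0.04 (SE 0.326) on the log2 scale, with edgeR adjusted p-values of 0.161, 0.895 and 0.939. M3 replicate 2 held 962 counts against 361 to 575 in the other libraries, and without it the M3 against M1 log2 fold change was 0.30.

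Levels of different genes were compared as CPM per kilobase of exon. DNMT1 made up 83.8% to 95.3% of the summed CPM per kilobase of the 3 methyltransferases. Such shares depend on the length used. The DNMT1 mean for M1 was 5.44 CPM per kilobase over all its exons and 15.9 over its canonical transcript. For DNMT3B these means were 0.474 and 0.752. The ratio of DNMT3B to DNMT3A on this scale was 1.38 and 1.08 in M1 and 2.11 and 1.77 in M2, then 0.340 and 0.394 in M3 and 0.300 and 0.301 in M4. All 4 libraries of M1 and M2 had more DNMT3B than DNMT3A per kilobase, and all 4 of M3 and M4 had less. That split separates the same libraries as the EGF in the medium. The order of the pair in each line was the same when the length of the canonical transcript was used in place of all exons of the gene, a choice made after seeing the data.

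**Figure D2:**
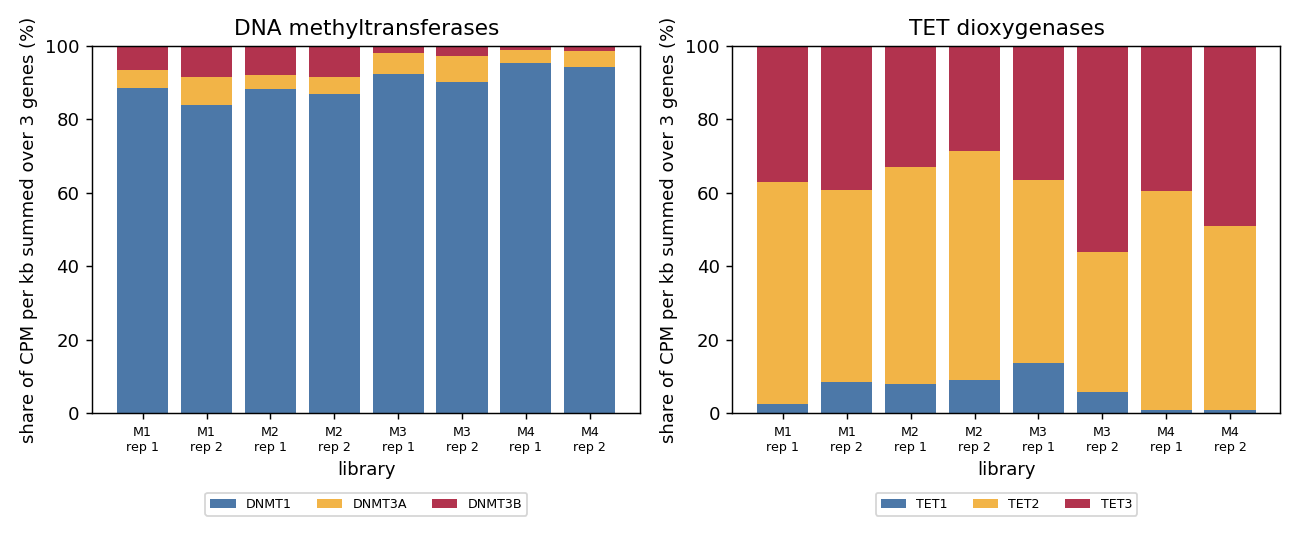
Share of each gene (%, vertical axis from 0 to 100) in the summed CPM per kilobase of the 3 DNA methyltransferases (left) and the 3 TET dioxygenases (right), 1 bar per library. DNMT1 takes 83.8% to 95.3% of the left bars, and TET1 takes 0.898% and 0.897% of the right bars in M4.

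Among the dioxygenases, TET1 was low in M4. TET1 (10:70320094-70454244, plus strand) was measured at 0.725 and 2.33 CPM in the M1 pair, 1.96 and 2.15 CPM in the M2 pair, 2.56 and 1.71 CPM in the M3 pair, and 0.229 and 0.333 CPM in the M4 pair. The M1, M2 and M3 ranges overlapped, and both M4 libraries were below the other 6. The counts were 60 and 191 for M1, 200 and 151 for M2, 203 and 149 for M3, and 26 in each M4 library. A count of 26 has an exact 95% Poisson interval of 17.0 to 38.1, which covers counting error only. TET1 fell 7.62-fold from M3 to M4 (log2 fold change -2.93, SE 0.604, edgeR adjusted p = 0.0183) and 7.32-fold from M2 to M4 (-2.87, SE 0.603, adjusted p = 0.0144). It was 5.45-fold lower in M4 than in M1 (-2.45, SE 0.597, adjusted p = 0.0182). M4 and M3 were grown without EGF alike, so the first of these differences was measured in a shared medium. M1, M2 and M3 did not differ beyond their spread, with log2 fold changes of 0.06 to 0.48 and edgeR adjusted p-values of 0.565 to 0.968.

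The M1 replicates of TET1 differed 3.21-fold, more than any other replicate pair of the 6 genes. Without M1 replicate 2 the M4 against M1 value was -1.37 (edgeR adjusted p = 0.0815). Without M4 replicate 1 or 2 none of the 3 TET1 comparisons with M4 passed, with edgeR adjusted p-values of 0.0630 to 0.120 and log2 fold changes of -2.18 to -3.19, and without either M2 replicate M4 against M2 did not pass (adjusted p = 0.0674 and 0.0739). M4 against M3 also missed without M3 replicate 1 (edgeR adjusted p = 0.0694). With the doubtful libraries exchanged, M4 against M3 (edgeR adjusted p = 0.0396) and M4 against M2 (0.0225) passed and M4 against M1 did not (0.0524).

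TET2 (4:106067032-106200973, plus strand) was measured at 32.2 and 25.2 CPM in the M1 pair, 25.0 and 25.9 CPM in the M2 pair, 15.9 and 20.1 CPM in the M3 pair, and 26.1 and 31.8 CPM in the M4 pair. Both M3 libraries were below the other 6. TET2 fell 1.59-fold from M1 to M3 (log2 fold change -0.67, SE 0.193, edgeR adjusted p = 0.0436) and was 1.61-fold higher in M4 than in M3 (0.69, SE 0.193, adjusted p = 0.0477). Neither result was firm: they passed under 5 and 8 of 17 alternatives, and with the doubtful libraries exchanged the edgeR adjusted p-values were 0.184 and 0.120. Leaving out any library other than M1 replicate 2 ended the M3 against M1 call, with edgeR adjusted p-values of 0.0520 to 0.184. The M4 against M3 call ended without M3 replicate 1, either M2 replicate or either M4 replicate (edgeR adjusted p = 0.0991 to 0.205). Under a replicate block both calls ended (edgeR adjusted p = 0.0556 and 0.0622). In the test over all lines TET2 had an edgeR adjusted p of 0.0672. Its antisense gene TET2-AS1, on the opposite strand, had 1 count in 1 library and none in the other 7.

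TET3 (2:74212037-74335303, plus strand) was measured at 15.5 and 14.8 CPM in the M1 pair, 10.9 and 9.25 CPM in the M2 pair, 9.22 and 23.1 CPM in the M3 pair, and 13.5 and 24.6 CPM in the M4 pair. Its M3 replicates differed 2.50-fold and its M4 replicates 1.82-fold, and no comparison passed. The log2 fold change furthest from 0 was 0.92 (SE 0.432) for M4 against M2, with an edgeR adjusted p of 0.163. An unnamed lncRNA gene that shares exon bases with TET3 held at most 78 counts, and S1PR2, which shares exon bases with DNMT1, at most 66. Whether the counting used strand is not given in the sources used here.

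Per kilobase of exon TET2 and TET3 made up most of the TET transcript. The share of TET1 in the summed CPM per kilobase was 2.34% and 8.32% for M1, 7.98% and 8.90% for M2, 13.7% and 5.60% for M3, and 0.898% and 0.897% for M4. TET2 took 38.3% to 62.6% and TET3 28.5% to 56.1%. DNMT1 was the highest and TET1 the lowest of the 6 genes in every line on this scale, also with canonical transcript lengths, under which TET2 and TET3 changed places in M3.

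Read against all genes, the number of members that passed in each comparison was as follows. In M2 against M1 0 of 6 passed, where 3.37% of the 18431 tested genes were higher and 1.46% lower. At an unadjusted p under 0.05 edgeR gave 1 member, DNMT1, which was also the 1 member that DESeq2 called (adjusted p = 0.0123). In M3 against M1 DNMT1 was higher and TET2 lower, against 12.9% and 8.33% of all genes. In M4 against M1 DNMT1 was higher and DNMT3B and TET1 lower, against 15.6% and 15.8% of all genes. In M3 against M2 DNMT3B was lower and no member higher, against 1.56% and 3.98%. In M4 against M2 DNMT3B and TET1 were lower and no member higher, with 11.1% of all genes lower and 11.1% higher. In M4 against M3 TET1 was lower and TET2 higher, against 9.72% and 7.05%. In the edgeR test over all lines DNMT1 (adjusted p = 0.0176), DNMT3B (0.00580) and TET1 (0.0268) passed, 3 of 6 where 36.4% of all genes did, and 1 of 6 passed without M2 replicate 1 or 2 or M4 replicate 1 or 2. The 6 comparisons share libraries and are not independent of each other.

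**Figure D3:**
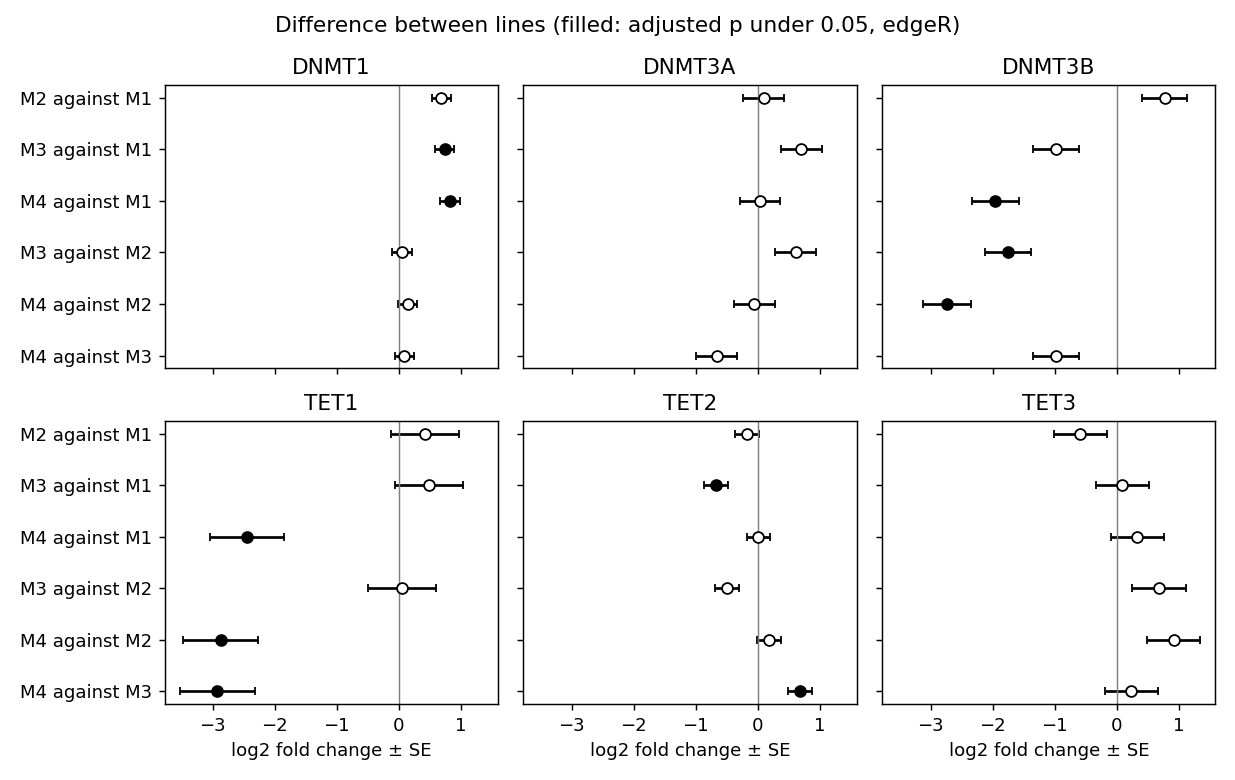
Log2 fold change (horizontal axis) with its standard error for the 6 genes in the 6 comparisons, from edgeR; filled points have an adjusted p under 0.05. The filled points are DNMT1 in M3 and M4 against M1, DNMT3B in M4 against M1 and in M3 and M4 against M2, TET1 in M4 against each other line, and TET2 in M3 against M1 and M4 against M3.

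Some cofactors of the methyltransferases rose outside M1. Of 8 listed genes 7 were matched to a row and 6 were tested, and UHRF1 had no row matched. DNMT3L, the catalytically inactive partner of the de novo enzymes, had 0 counts in every library. By edgeR 3 of the 6 rose in M2 against M1, 4 in M3 and 3 in M4, with none lower and medians of 0.77, 0.89 and 0.57. Among all genes tested 3.37%, 12.9% and 15.6% were higher in these comparisons. ZBTB24 and USP7 passed in none of the 6 comparisons. HELLS, a chromatin remodeller needed for methylation of repeats, rose by 1.31, 1.21 and 1.15 in M2, M3 and M4 against M1 (log2, edgeR adjusted p = 0.0214, 0.0103 and 0.00814). Its partner CDCA7 rose by 1.75 in M2 and 1.14 in M3 (adjusted p = 0.00640 and 0.00711) and fell by 1.41 from M2 to M4 and by 0.80 from M3 to M4 (adjusted p = 0.00326 and 0.0298). PCNA, the replication clamp, rose by 0.95, 0.64 and 0.80 in M2, M3 and M4 (edgeR adjusted p = 0.0244, 0.0347 and 0.0113). UHRF2, a paralogue of UHRF1, stood at 40.4 and 53.3 CPM for M1 and 118.9 to 138.0 CPM for M3 and M4, and rose by 1.40 and 1.46 against M1 (edgeR adjusted p = 0.00190 and 0.000951). HELLS, CDCA7 and PCNA are known to be higher in dividing cells. With the doubtful libraries exchanged 0, 0 and 1 of the 6 passed against M1, with medians of -0.002, 0.093 and 0.26.

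**Figure D4:**
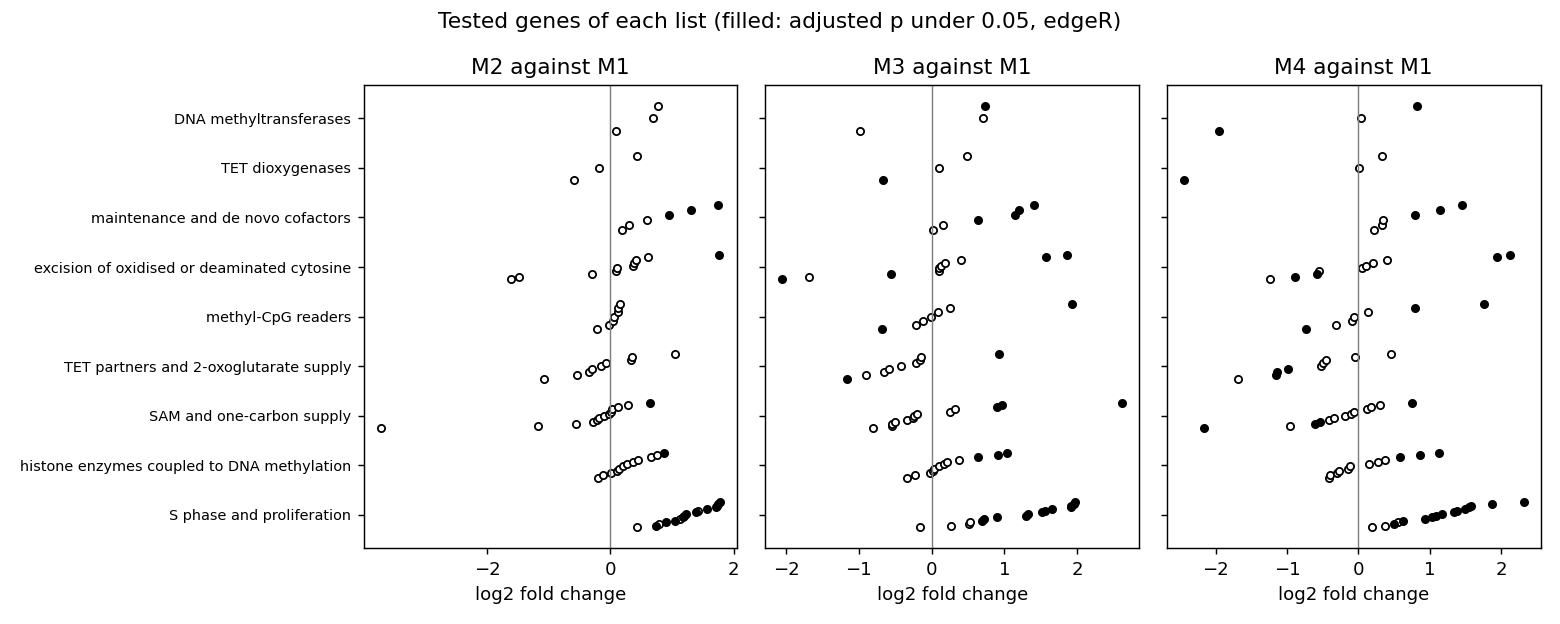
Log2 fold change (horizontal axis) of every tested gene of each list in M2, M3 and M4 against M1; 1 point per gene, filled where the edgeR adjusted p is under 0.05. The S phase list lies to the right of 0 in most of its 16 genes, with medians of 1.21, 1.31 and 1.13, and the 6 tested cofactors also lie right of 0 in each panel. Every other list has genes on both sides of 0 in at least 1 panel.

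Genes that act after the TET enzymes were called in both directions in M3 and M4, as genes at large were. Of 10 tested genes that excise or process modified cytosine, 1 rose in M2 against M1, 2 rose and 2 fell in M3, and 2 rose and 2 fell in M4, with medians of 0.24, 0.12 and 0.08. In M4, 2 of 10 in each direction stood beside 15.6% of all genes higher and 15.8% lower, and in M3 beside 12.9% and 8.33%. TDG, the glycosylase that removes oxidised cytosines, was measured at 35.9 to 69.5 CPM and passed in no comparison. NEIL3, a glycosylase found in dividing cells, rose by 1.77, 1.86 and 2.12 in M2, M3 and M4 against M1 (log2, edgeR adjusted p = 0.0157, 0.00451 and 0.00173). GADD45A, a stress-response gene linked to demethylation, rose by 1.57 in M3 and 1.95 in M4 (edgeR adjusted p = 0.00569 and 0.00163). APEX1, the abasic site endonuclease, fell by 0.56 in M3 and 0.89 in M4 (adjusted p = 0.0491 and 0.00698), and the repair scaffold XRCC1 fell by 0.58 in M4 against M1 and by 0.69 against M3 (adjusted p = 0.0497 and 0.0451). With the libraries exchanged, 0, 0 and 1 genes rose against M1 and none fell.

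Of the 9 tested TET partners and enzymes of 2-oxoglutarate supply, none passed in M2 against M1, 1 rose and 1 fell in M3, and 3 fell in M4, with medians of -0.15, -0.42 and -0.52. The 3 lower in M4 stood beside 15.8% of all genes lower. IDH2, the mitochondrial isocitrate dehydrogenase that makes 2-oxoglutarate, was lower in M4 than in each other line, by 1.14 against M1, 0.99 against M2 and 0.93 against M3 on the log2 scale (edgeR adjusted p = 0.0147, 0.0327 and 0.0483). CXXC5, a CpG-binding protein related to the TET family's binding domain, fell by 0.99 in M4 against M1 and 0.92 against M2 (adjusted p = 0.0249 and 0.0408). OGT, the O-GlcNAc transferase that binds TET proteins, fell by 1.17 in M3 against M1 (adjusted p = 0.0152). It was lower by 1.07 in M2 against M1, just outside the threshold (edgeR adjusted p = 0.0511). M3 was not separated from M2 (-0.097, adjusted p = 0.857). With the libraries exchanged none of the 9 passed against M1.

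Of 13 tested genes of S-adenosylmethionine and one-carbon supply, which feed the methyltransferases, 1 rose in M2 against M1, 3 rose in M3, and 1 rose and 3 fell in M4. The medians were -0.10, -0.25 and -0.19. In M4, 1 of 13 higher and 3 of 13 lower stood beside 15.6% and 15.8% of all genes, and in M3 3 of 13 higher beside 12.9%. MTHFD1, a folate enzyme, was measured at 153.3 and 155.9 CPM for M1, 239.3 and 244.7 for M2, 301.4 and 301.8 for M3, and 158.6 and 178.6 for M4, and passed in M2 and M3 against M1 and in M4 against M2 and M3 (edgeR adjusted p = 0.0324, 0.00289, 0.0249 and 0.00754). MAT1A, an S-adenosylmethionine synthetase best known from liver, stood at 5.94 and 6.56 CPM in M3 and at 0.192 to 1.18 CPM in the other 6 libraries. AHCYL1, a relative of adenosylhomocysteinase, fell by 0.61 in M4 against M1 (adjusted p = 0.0289). With the libraries exchanged none of the 13 passed against M1.

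Methyl-CpG readers and histone enzymes linked to DNA methylation came next. Of the 7 readers, none passed in M2 against M1, 1 rose and 1 fell in M3, and 2 rose and 1 fell in M4, with medians of 0.06, -0.01 and -0.06. Among all genes 15.6% were higher and 15.8% lower in M4. ZBTB38, a zinc finger reader, rose by 1.93 in M3 and 1.77 in M4 against M1, and ZBTB33 (Kaiso) fell by 0.69 and 0.74 (log2, edgeR adjusted p = 0.00274, 0.00225, 0.0214 and 0.0116). MBD1 was higher in M4 than in each other line, by 0.80, 0.75 and 0.71 (adjusted p = 0.00377, 0.00706 and 0.0123). With the libraries exchanged 0, 1 and 2 readers rose and none fell against M1. Of the 12 histone enzymes and partners, 1, 3 and 3 rose in M2, M3 and M4 against M1 and none fell, with medians of 0.24, 0.13 and 0.02, beside 3.37%, 12.9% and 15.6% of all genes higher. SUV39H1, which methylates histone H3 at heterochromatin, rose by 0.88, 1.03 and 1.13 (edgeR adjusted p = 0.0192, 0.00372 and 0.00165). Its paralogue SUV39H2 rose by 0.91 in M3 and 0.87 in M4 (adjusted p = 0.0377 and 0.0326), and the Polycomb enzyme EZH2 by 0.64 and 0.58 (adjusted p = 0.0291 and 0.0303). In M2 against M1 SUV39H2 was higher by 0.76 and EZH2 by 0.67 without passing (edgeR adjusted p = 0.126 and 0.0617). TRIM28, a corepressor of repeats, fell by 0.66 from M2 to M4 (adjusted p = 0.0160). With the libraries exchanged none of the 12 passed against M1. Of 12 germline genes that promoter methylation is known to keep silent, 2 were tested and none passed, and the list summed to 0 to 1.40 CPM in any library.

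Mammary lineage markers also differed between M4 and M2, where DNMT3B and TET1 were lower. In M4 against M2, 4 of 6 luminal markers were higher and 1 lower, and 3 of 6 basal markers were lower and 1 higher (edgeR). Of all tested genes 11.1% were higher and 11.1% lower in this comparison. The luminal list summed to 1614 to 1654 CPM in M2 and to 4403 and 2725 CPM in M4. The luminal keratin KRT18 went from 597.4 and 578.5 CPM to 2089 and 1340 CPM, and the luminal factor FOXA1 from 2.86 and 3.03 to 15.1 and 15.1 CPM. The basal keratin KRT5 went from 9179 and 9190 CPM to 3268 and 2837 CPM, and TP63, the basal transcription factor, from 105.1 and 105.4 to 36.2 and 39.8 CPM. With the libraries exchanged 1 luminal marker was higher and 1 lower, and 3 basal markers were lower. In M3 against M2, where DNMT3B was also lower, 2 of 6 basal markers were higher and 0 lower (edgeR). There 1 of 6 luminal markers was lower and 0 higher, beside 3.98% of all genes higher and 1.56% lower. With the libraries exchanged 0 markers of either list passed in M3 against M2.

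Markers of fibroblasts, blood and endothelium were mostly low. The fibroblast list of 5 genes summed to 60.1 and 8.62 CPM for M1, 74.3 and 72.4 for M2, 10.1 and 15.7 for M3, and 7.56 and 6.43 for M4. Decorin (DCN) made up most of it in M2, at 60.2 and 58.6 CPM, a level above 5 of the 6 members, and fell to 0.167 and 0.0128 CPM in M4 (log2 fold change -9.19, edgeR adjusted p = 0.00970). The collagen gene COL1A2 was at 0 in every library. The blood list of 4 genes summed to 24.6 and 14.3 CPM in M1 and 1.06 to 5.62 CPM elsewhere, almost all from CD14, with CD3E at 0 in every library. The 2 matched endothelial genes summed to at most 0.326 CPM. The part of the lineage markers and of other cells in the member levels was not tested. A fall in a transcript per cell and fewer cells that express it cannot be told apart in these bulk libraries.

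Genes on the same chromosome within 5 Mb gave a measure of regional change. The 77 tested neighbours of DNMT3B had a median log2 fold change of 0.13 in M4 against M2 (quartiles -0.33 and 0.43) and -0.27 in M4 against M1 (quartiles -0.90 and 0.20), where DNMT3B itself changed by -2.73 and -1.96. The 57 neighbours of TET1 had medians of 0.15, 0.10 and 0.12 in M4 against M1, M2 and M3, where TET1 itself changed by -2.45, -2.87 and -2.93. The 211 neighbours of DNMT1 had medians of -0.18 and 0.00 in M3 and M4 against M1. The 76 neighbours of DNMT3A had a median of 0.41 in M3 against M2, with 67 of them above 0, beside 0.61 for DNMT3A itself, and a median of -0.43 in M4 against M3, beside -0.66. The 70 neighbours of TET3 had a median of 0.34 in M3 against M2, with 57 above 0, beside 0.68 for TET3. In M4 against M3 their median was -0.385, with 16 above 0, beside 0.238 for TET3. In M4 against M2 it was -0.126 beside 0.919, and in M3 against M1 0.466 beside 0.095. The part of regional change in the member levels was not tested.

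Among 10277 protein-coding genes with a mean of at least 5 CPM, those with the pattern most like each member over the 8 libraries were found by Pearson's r of log2 CPM, given as a description since the libraries share 4 lines. For DNMT1 these were PAQR3 (r = 0.995), BRCA2 (0.985) and CDC25A (0.981), for DNMT3B FZD6 (0.989), SCO1 (0.984) and QDPR (0.980), and for TET1 FKBP9 (0.990), HTR7 (0.985) and STMN3 (0.978). For DNMT3A they were SPRED1 (0.968), CDAN1 (0.949) and POGZ (0.946). TET2 was closest to NABP1 (0.986), SLC8B1 (0.978) and IQANK1 (0.978), and TET3 to ZKSCAN2 (0.983), BIRC6 (0.965) and C2CD2 (0.951).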

How the data were processed

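The authors selected poly A+ RNA, sequenced paired ends, trimmed the reads with Trimmomatic, aligned them with STAR to hg19 (GRCh37) and counted them with RSEM, using GENCODE v19. The deposited table holds expected counts per gene, not normalized, of which 12.8% are not whole numbers. They were rounded before testing. Samples were grouped by their labels. Each gene was tested with edgeR 4.0.16 (R 4.3.3): TMM factors, genes kept by filterByExpr, a model with a mean for each of the 4 lines, robust quasi-likelihood fitting and an F test per comparison. The p-values of the 18431 genes tested were adjusted by Benjamini-Hochberg, and a gene was called where the adjusted p fell under 0.05. Standard errors were derived from the F statistic. All 6 members passed the filter. Lengths, transcript starts and positions are those of GENCODE release 44 on GRCh37, and 122 of 124 listed genes were matched. Alternatives were other size factors, DESeq2 1.42.0, other filters, a replicate block, the compared lines alone, a fold threshold, the exchanged libraries and each library left out. The fitting step was tested on simulated data. Python 3.11.15 (pandas 2.3.3, numpy 2.4.6, scipy 1.17.1, matplotlib 3.10.9) served for the other steps.

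The members and lists were chosen with earlier results of these data known. The genes named are the 6 members, up to 4 genes of each list called in most comparisons, UHRF1, DNMT3L, TDG, TET2-AS1, markers that bear on a result, and the 3 genes most like each member. At these depths the 26 TET1 counts in each M4 library set the least precise values. Results for 2 further genes of the lists and 1 promoter window are not reported here.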

Additional observations from a re-analysis of the deposited data

How the results depend on the processing

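Of 612 values of a member in a comparison under an alternative, 524 kept their direction and their side of the threshold, 50 lost the call, 10 gained one and 28 changed sign, all 28 in comparisons that had not passed. The cause of these changes was not tested. The number of members called moved by more than 1.5 times as follows. M2 against M1, from 0, gave 1 with DESeq2, with no filter on low counts, with at least 1 CPM in 2 libraries and with only the compared lines. M3 against M1, from 2, gave 1 with library totals and with the replicate block, and 0 with only the compared lines, with the libraries labelled M1 replicate 2 and M2 replicate 1 exchanged, without both, and with a log2 fold change above 1 required. M4 against M1, from 3, gave 1 with the libraries exchanged and 0 without both. M3 against M2, from 1, gave 0 with only the compared lines, with the exchange and without both. M4 against M3, from 2, gave 1 with the replicate block, only the compared lines, the exchange, without both and with the fold threshold. The test over all lines, from 3, gave 5 with no filter and 0 with the exchange. Smaller moves were 3 with DESeq2 in M3 against M1, 3 with no filter in M4 against M2, 2 with only the compared lines and with the fold threshold in M4 against M1, and 4 with DESeq2 and 2 without both libraries over all lines. Leaving out each library gave 0 to 1 called in M2 against M1, 1 to 2 in M3 against M1, 1 to 3 in M4 against M1, 0 to 1 in M3 against M2, 1 to 2 in M4 against M2, 0 to 2 in M4 against M3, and 1 to 3 over all lines. An arm left with 1 library was assumed to vary like the other lines.

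Signs turned, on the log2 scale, with the exchange for DNMT1 in M2 against M1 (-0.13) and TET1 in M3 against M2 (-0.067, and -0.0053 without both libraries), with library totals for DNMT1 (-0.0070) and TET1 (-0.030) in M3 against M2, with the stricter filter for TET2 in M4 against M1 (-0.00026, and -0.15 without both) and with the replicate block for TET3 in M3 against M1 (-0.013). Leaving out 1 library gave ranges across 0 of -0.14 to 0.23 for DNMT1 in M3 against M2, -0.087 to 0.28 in M4 against M3, -0.17 to 0.42 for DNMT3A in M2 against M1, -0.20 to 0.36 in M4 against M1, -0.18 to 0.082 in M4 against M2, -0.18 to 1.50 for TET1 in M2 against M1, -0.12 to 1.56 in M3 against M1, -0.26 to 0.32 in M3 against M2, -0.34 to 0.012 for TET2 in M2 against M1, -0.15 to 0.22 in M4 against M1, -0.71 to 0.62 for TET3 in M3 against M1, -0.14 to 0.71 in M4 against M1, -0.13 to 1.20 in M3 against M2, and -0.28 to 1.05 in M4 against M3. By the rule that every pair of lines must correlate above 0.1, the replicate numbers did not pair the libraries: the deviations of same-numbered replicates correlated at 0.291 between M3 and M4 and at -0.080 to 0.0028 between the other lines. In both M3 and M4, replicate 2 was the higher for DNMT3A, DNMT3B, TET2 and TET3, and the replicate block ended the 2 TET2 calls and no other.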
